A study of Mus musculus with 12 samples.

Results

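The genes described here are the translation initiation factors (symbols starting with Eif) and elongation factors (symbols starting with Eef) of the mouse. All protein-coding genes with such a symbol in GENCODE M21 and a row in the counts were taken, which gave 68 of 29879 genes counted, 55 Eif genes and 13 Eef genes. The choice used names and no measured value, though it was made with earlier results of these data known. The name decides the class, so the Eif genes include kinases, inhibitors and eIF5A, a factor now known for its part in elongation and termination, and the Eef genes include a kinase and methyltransferases.

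The tissue was cortex of mice of the SNAP25 BacTRAP transgenic line at postnatal day 21, in 4 groups of 3 libraries. Such a line makes a ribosomal protein with a green fluorescent tag under a chosen gene's regulatory sequences, here those of the neuronal gene Snap25, so that tagged ribosomes and their mRNA can be pulled down (translating ribosome affinity purification). SynapTRAP is the pull-down from the synaptic band (SN) of a sucrose and percoll gradient, and SNF is that band before the pull-down. TRAP is the pull-down from the cortex homogenate, and WCH is the whole cortex homogenate. All 4 groups, SNF and WCH included, come from the transgenic line, and a pull-down from untagged tissue was not analysed here. The labels do not say that the 3 libraries of a group are separate animals, so p-values measure the spread between these libraries, part of which may be technical. In such tissue fractions, fewer cells or particles of a type cannot be told apart from less RNA in each.

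Initiation brings the ribosome to the start codon. The cap-binding eIF4F complex (eIF4E, eIF4G and the helicase eIF4A) recruits a small ribosomal subunit that carries eIF3, eIF1, eIF1A, eIF5 and the eIF2 complex with initiator tRNA, and eIF2B recharges eIF2 with GTP. During elongation eEF1A delivers aminoacyl-tRNA, the eEF1B complex recharges eEF1A, and eEF2 moves the ribosome along the mRNA. In neurons this machinery also works in dendrites and near synapses, where eIF4E-binding proteins, kinases of eIF2α and the kinase of eEF2 restrain it.

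Gene counts per library were 4368881 to 14335089, of which 1819853 to 7115176 lay outside the mitochondrial genome. Levels are given as CPM, counts scaled to 1000000 per library, with libraries brought to one scale by trimmed means of M-values (TMM). The library numbered 1 stood apart from the other 2 in each of the 4 groups on sex-linked RNA: the Y-linked initiation factor Eif2s3y had 0 to 1 counts in the libraries numbered 1, against 25 to 387 in those numbered 2 and 45 to 255 in those numbered 3. Xist had 38 to 2295 counts in the libraries numbered 1, 1 to 10 in those numbered 2 and 0 to 3 in those numbered 3. The labels give no sex, and the libraries numbered 1 were not repeats of the same material as the others. Of the neuron markers, Snap25 was found in every library, and none of the 10 neuron markers was at 0 in all libraries. Neuron markers summed to 12356 to 13074 CPM in SynapTRAP, 9753 to 10584 in SNF, 9906 to 17310 in TRAP and 9918 to 10848.5 in WCH. In the edgeR fit described below, 5 of the 10 were higher and 0 lower in TRAP than in WCH. Snap25 itself was not called there (log2 fold change 0.30, adjusted p = 0.47). It was lower in SNF than in WCH (−0.96) and in SynapTRAP than in TRAP (−1.58). Astrocyte markers summed to 9514 to 16385 CPM in SynapTRAP, 14347 to 19510 in SNF, 679 to 1469 in TRAP and 2337 to 2937 in WCH. Oligodendrocyte markers summed to 9019 to 21859 CPM in SynapTRAP, 7590 to 10084 in SNF, 545 to 7121 in TRAP and 2814 to 3576 in WCH. Glial marker RNA was higher in both synaptic groups than in TRAP and WCH in every library.

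Elongation factors took a larger part of the factor RNA in the pull-downs and in the synaptic band than in the homogenate when Eef2 was counted, and Eef2 was the largest of them. The ratio of summed elongation factor counts to summed initiation factor counts was 0.429, 0.349 and 0.390 in SynapTRAP, 0.298, 0.269 and 0.243 in SNF, 0.216, 0.251 and 0.321 in TRAP and 0.181, 0.164 and 0.154 in WCH. All SynapTRAP libraries lay above all others and all WCH libraries below all others, while SNF and TRAP overlapped. This separation needed Eef2. Without Eef2, a choice made after seeing the data, the ratio was 0.134, 0.156 and 0.160 in SynapTRAP, 0.149, 0.135 and 0.133 in SNF, 0.0959, 0.141 and 0.1495 in TRAP and 0.103, 0.0967 and 0.0945 in WCH. Both synaptic groups were then still above WCH in every library, but SynapTRAP overlapped SNF and TRAP, and TRAP overlapped WCH. The ratio is taken within a library, so no scaling between libraries enters it. Means were 0.389 ± 0.0403 in SynapTRAP, 0.270 ± 0.0273 in SNF, 0.262 ± 0.0536 in TRAP and 0.166 ± 0.0135 in WCH (SD, n = 3 each). Elongation factors summed to 783 ± 57.0 CPM in SynapTRAP, 459.7 ± 45.4 in SNF, 612 ± 123 in TRAP and 344 ± 10.4 in WCH. Initiation factors summed to 2016 ± 77.6 CPM in SynapTRAP, 1703 ± 51.5 in SNF, 2336 ± 91.2 in TRAP and 2076 ± 104 in WCH. With Eef2 included, each pull-down had on this scale more elongation factor RNA than the sample it was made from in every library, and the synaptic band had less initiation factor RNA than the homogenate. The typical gene was lower in the band too. Median log2 fold changes in SNF against WCH were −0.25 over all tested genes and −0.44 over initiation factors. A single gene, Eef2, made up 61.0% of the elongation sum in SynapTRAP, 48.4% in SNF, 50.9% in TRAP and 40.8% in WCH. Without Eef1a1, whose reads may belong to pseudogenes, the mean ratio was 0.309, 0.209, 0.203 and 0.126 in the same order of groups. With counts divided by exon length it was 0.657, 0.469, 0.408 and 0.292. A narrower set, a choice made after seeing the data, left out the kinases of eIF2α, the eIF4E inhibitors, Eif1ad and Eif4a3. Of the Eef genes it kept only those for eEF1A, the eEF1B complex and eEF2. With this set the mean ratio was 0.406, 0.276, 0.260 and 0.157.

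**Figure D1:**
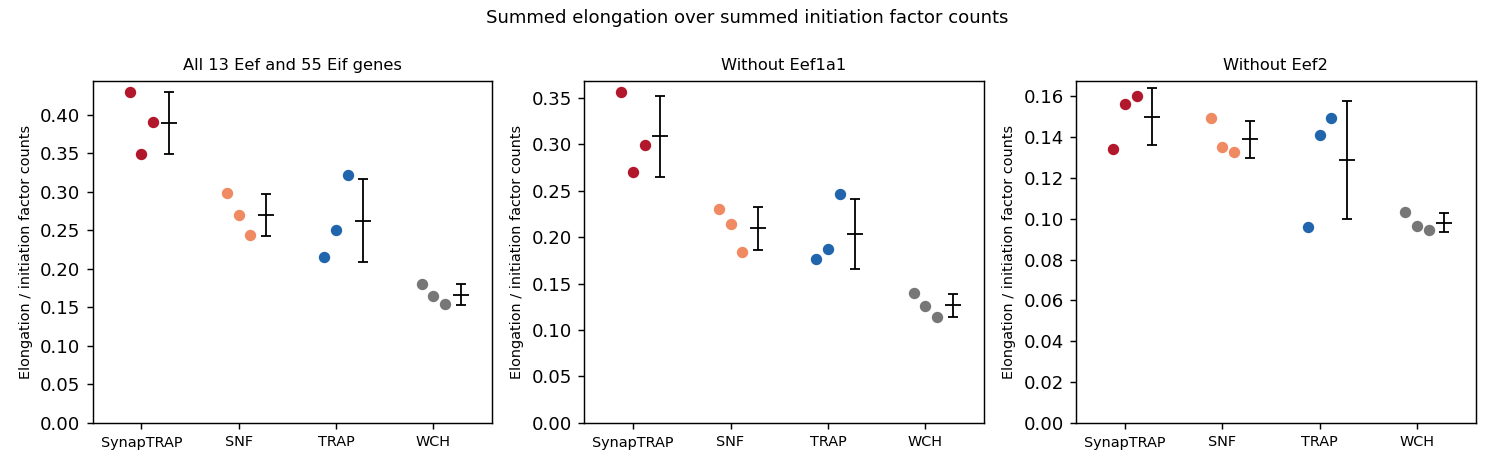
Ratio of summed elongation factor counts to summed initiation factor counts in each library (points), with group mean and SD (n = 3), for all 68 genes (left), without Eef1a1 (middle) and without Eef2 (right). SynapTRAP libraries run from 0.349 to 0.429 on the left and lie above the other groups, and WCH libraries from 0.154 to 0.181 lie below them, while on the right SynapTRAP (0.134 to 0.160) overlaps SNF (0.133 to 0.149).

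Of the 68 genes, 65 passed the filter on low counts and were tested with edgeR in a fit over 13404 genes, at an adjusted p under 0.05. Eif4e1b, an oocyte relative of eIF4E, had 0 counts in every library, the eIF4E inhibitor Eif4ebp3 had at most 3 and the methyltransferase gene Eef1akmt3 at most 5, and these were not tested. In TRAP against WCH, 18 of the 65 genes were higher and 2 lower, where 11.1% of all tested genes were called higher and 10.9% lower (22.0% together). These were 14 higher and 2 lower of 53 initiation factors, and 4 higher and 0 lower of 12 elongation factors. In SNF against WCH, 5 were higher and 15 lower, beside 20.6% and 16.5% of all tested genes (37.0% together). In SynapTRAP against SNF, 2 were higher, Eef2 and Eef1a2, and 0 lower, beside 2.29% and 1.79% of all tested genes (4.08% together). In SynapTRAP against TRAP, 5 were higher and 22 lower, beside 21.6% and 18.1% (39.8% together). The share higher in TRAP than in WCH (27.7%), and the share lower in SynapTRAP than in TRAP (33.8%), lay above these backgrounds, while the share higher in SNF than in WCH (7.69%) lay below it. Median log2 fold changes for initiation factors, elongation factors and all tested genes were 0.16, 0.49 and −0.01 in TRAP against WCH, −0.44, 0.15 and −0.25 in SNF against WCH, 0.28, −0.04 and 0.03 in SynapTRAP against SNF, and −0.37, −0.10 and −0.02 in SynapTRAP against TRAP.

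The pull-down effect at the synaptic band was also set against that in the homogenate, as SynapTRAP minus SNF less TRAP minus WCH. None of the 65 genes passed in edgeR, where 0.507% of all tested genes were called higher and 0.358% lower (0.865% together). At an unadjusted p under 0.05 there were 8, a count with no share of all tested genes beside it, so no conclusion is drawn from it. DESeq2 called 1, Eif1, as lower, where it called 575 of all genes either way. Without SynapTRAP replicate 3 or TRAP replicate 1, edgeR called 1 gene lower. Eif1 had the smallest adjusted p in edgeR (log2 difference −1.13 ± 0.34 (SE), adjusted p = 0.0993).

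Calls held with each library left out in turn for 11 of the 20 called genes in TRAP against WCH, 5 of 20 in SNF against WCH, 0 of 2 in SynapTRAP against SNF and 19 of 27 in SynapTRAP against TRAP. With any 1 library of both groups left out, calls were 10 to 19 higher and 1 to 2 lower in TRAP against WCH, 1 to 5 higher and 5 to 9 lower in SNF against WCH, 0 to 6 higher in SynapTRAP against SNF, and 4 to 6 higher and 18 to 22 lower in SynapTRAP against TRAP. The counts moved by over 1.5 times without WCH replicate 3 (10 higher) or WCH replicate 2 (1 lower) in TRAP against WCH, without any 1 of the 6 libraries in SNF against WCH (lower), and without SNF replicate 1, 2 or 3 (1, 0 and 0) or SynapTRAP replicate 1 or 3 (0 and 6) in SynapTRAP against SNF. In SNF against WCH the higher calls were 1 without SNF replicate 1, SNF replicate 2 or WCH replicate 2, and 3 without WCH replicate 1 or 3. With only the libraries numbered 2 and 3, there were 8 higher and 2 lower in TRAP against WCH, 0 and 1 in SNF against WCH, 0 and 0 in SynapTRAP against SNF, and 2 and 12 in SynapTRAP against TRAP. Over all genes, this setting called 1278, 2397, 0 and 2653 in these 4 comparisons, against 2947, 4966, 547 and 5331 with all libraries. No gene of any kind was thus called in SynapTRAP against SNF at this setting. Of the calls made with all libraries for the genes described here, 9 of 20, 0 of 20, 0 of 2 and 13 of 27 were kept in that order. Those that had held with each library left out but were lost here were Eif3l, Eif4a3 and Eif5a in TRAP against WCH, all 5 in SNF against WCH, and Eif1a, Eif2b3, Eif2ak3, Eif3g, Eif4a2, Eif4ebp2 and Eif4enif1 in SynapTRAP against TRAP. Scaling by total counts, which hold the mitochondrial transcripts, moved the median of all genes to −2.60 in SNF against WCH, 1.98 in SynapTRAP against SNF, −0.9998 in SynapTRAP against TRAP and 0.56 in TRAP against WCH. With TMM after removing mitochondrial genes it was −0.24, 0.02, −0.02 and −0.02.

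**Figure D2:**
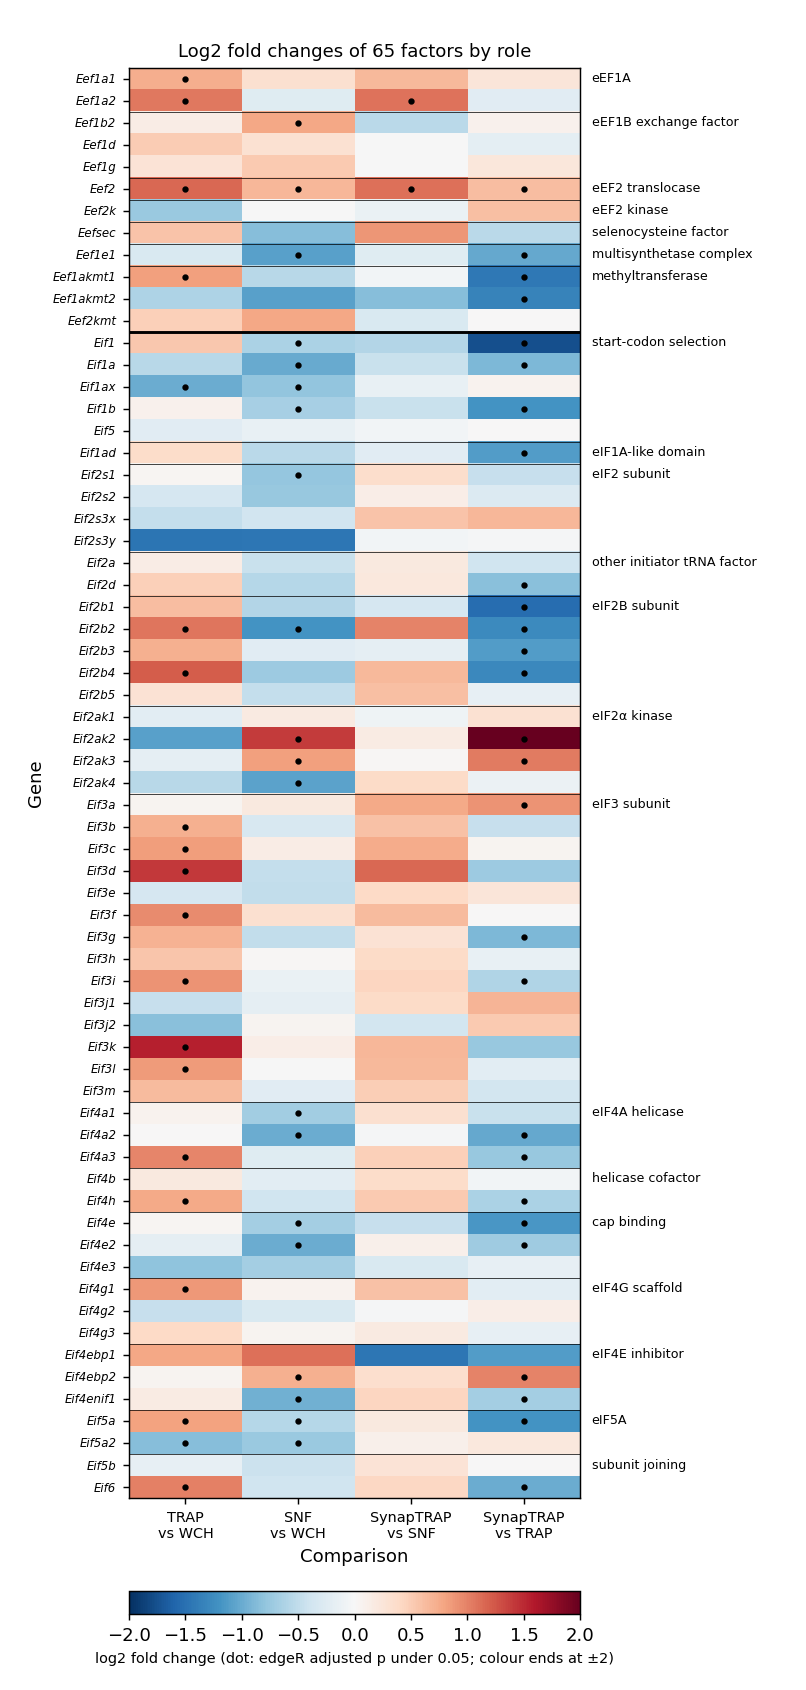
Log2 fold changes of the 65 tested genes (rows, by role, elongation factors above the thick line) in 4 comparisons (columns), with dots at an edgeR adjusted p under 0.05. Red cells are higher in the group named first, and the column for SynapTRAP against SNF holds 2 dots, Eef2 and Eef1a2.

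Among elongation factors, Eef2 (translocase, chr10:81176631-81182498, plus strand, GRCm38) was higher in both pull-downs. It had 569, 397 and 473 CPM in SynapTRAP, 255, 221 and 193 CPM in SNF, 289.9, 245 and 402 CPM in TRAP and 152, 140.4 and 129.7 CPM in WCH. SynapTRAP lay above SNF and TRAP above WCH in every library, and SynapTRAP and TRAP overlapped at one library. Eef2 was higher in SynapTRAP than in SNF (log2 fold change 1.11 ± 0.24 (SE), adjusted p = 0.0137). Eef2 lost this call without SNF replicate 2, SNF replicate 3 or SynapTRAP replicate 1 (log2 fold change 0.87 to 1.23, highest adjusted p = 0.109). In TRAP against WCH the fold change was of similar size (1.15 ± 0.24 (SE), adjusted p = 0.00201), a call that held with each library left out (log2 fold change 0.96 to 1.33), and the difference between both effects was −0.04 ± 0.34 (SE), adjusted p = 0.96. The gene was also higher in SNF than in WCH (0.66 ± 0.24 (SE), adjusted p = 0.0312), a call that was lost without SNF replicate 1, SNF replicate 2, WCH replicate 2 or WCH replicate 3 (log2 fold change 0.55 to 0.83, highest adjusted p = 0.14), and under total-count scaling its sign reversed to −1.72 while the median of all genes was −2.60. In SynapTRAP against TRAP it was higher (0.62 ± 0.23 (SE), adjusted p = 0.0394), a call that was lost without SynapTRAP replicate 1, TRAP replicate 1 or TRAP replicate 2 (log2 fold change 0.43 to 0.80, highest adjusted p = 0.2), and total-count scaling gave −0.32 there. In the authors' deposited table of 109 local translation candidates Eef2 was the only one of the 68 genes, with a log2 fold change of 0.87 (FDR 0.00928) by the column comparison and 0.95 (FDR 0.0788) by the TRAP comparison.

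The 2 genes for eEF1A, which delivers tRNA, were both higher in TRAP than in WCH. Eef1a2, the form of mature neurons and muscle (chr2:181147653-181157014, minus strand), had 37.9, 68.4 and 37 CPM in SynapTRAP, 22.7, 27.7 and 17.5 CPM in SNF, 43.8, 41.1 and 83.3 CPM in TRAP and 27.8, 32.6 and 19.99 CPM in WCH. Every TRAP library was above every WCH library, with TRAP replicate 3 well above the other TRAP libraries. It was higher in TRAP (log2 fold change 1.06 ± 0.29 (SE), adjusted p = 0.013). Eef1a2 lost this call without TRAP replicate 3 or WCH replicate 3 (log2 fold change 0.69 to 1.27, highest adjusted p = 0.112). Every SynapTRAP library was above every SNF library, and the gene was called higher there (1.08 ± 0.31 (SE), adjusted p = 0.047). Eef1a2 lost this call without SNF replicate 1, SNF replicate 2, SNF replicate 3, SynapTRAP replicate 1 or SynapTRAP replicate 2 (log2 fold change 0.73 to 1.26, highest adjusted p = 0.183). Eef1a1, the widely expressed form (chr9:78478449-78489151, minus strand), had 141, 162 and 185 CPM in SynapTRAP, 116, 90.7 and 104 CPM in SNF, 96.1, 142 and 174 CPM in TRAP and 81.5, 80.1 and 86.6 CPM in WCH. The gene was higher in TRAP than in WCH (0.73 ± 0.23 (SE), adjusted p = 0.0251), a call that was lost without TRAP replicate 3, WCH replicate 1, WCH replicate 2 or WCH replicate 3 (log2 fold change 0.55 to 0.96, highest adjusted p = 0.112), and in SynapTRAP against SNF its fold change was 0.65 ± 0.23 (SE), adjusted p = 0.11. Of the Eef1a1 transcripts' 50-base stretches, 60.6% also occur in other genes, among them 18 pseudogenes, so its counts are uncertain. Eef1a2 shares none. The Eef1a2 to Eef1a1 count ratio overlapped between the groups in all 4 comparisons. TRAP replicate 3, with the highest TRAP levels of Eef2, Eef1a1 and Eef1a2, also had the highest oligodendrocyte marker sum in TRAP, 7121 CPM against 2252 and 545 CPM in TRAP replicates 1 and 2. Of that sum 5943 CPM was Mbp, and 7 of the 10 markers were lower in TRAP replicate 3 than in TRAP replicate 1. Without it the fold changes in TRAP against WCH were 0.96 for Eef2 and 0.69 for Eef1a2.

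The promoters of these 3 elongation factor genes are shown because all 3 genes were higher in TRAP than in WCH. Each line gives the 40 bases before to 30 bases after the start in RefSeq (GRCm38.p6), in capitals TATAAA and each C followed by at least 5 pyrimidines, the run found at the start of many mRNAs for translation factors.
Eef2 (chr10:81176591-81176660, plus strand): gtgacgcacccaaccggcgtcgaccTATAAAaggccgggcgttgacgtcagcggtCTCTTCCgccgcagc
Eef1a1 (chr9:78481695-78481764, minus strand): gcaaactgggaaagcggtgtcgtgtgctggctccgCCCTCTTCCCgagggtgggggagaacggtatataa
Eef1a2 (chr2:181156986-181157055, minus strand): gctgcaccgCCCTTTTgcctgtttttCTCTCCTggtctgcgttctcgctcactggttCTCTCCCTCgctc
Over the same stretch around each RefSeq start (40 bases before to 30 after), TATAAA was sought on either strand. It occurred in 1 of 11 elongation factor windows, that of Eef2, and in 0 of 56 initiation factor windows. Over all genes it occurred in 3.90% of 32851 windows. The pyrimidine run on the gene's strand occurred in 63.6% of elongation factor windows, 44.6% of initiation factor windows and 45.4% of all windows. A match is a description of letters only.

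Of the eEF1B exchange factors, which recharge eEF1A, Eef1b2 was higher in SNF than in WCH. Its levels were 26.8, 38.5 and 47.6 CPM in SynapTRAP, 61.9, 52.7 and 49.9 CPM in SNF, 28.1, 51.3 and 26.3 CPM in TRAP and 29.3, 31.2 and 35.2 CPM in WCH, with the highest mean in SNF and one TRAP library within the SNF range. The log2 fold change was 0.78 ± 0.26 (SE), adjusted p = 0.0232, a call that was lost without SNF replicate 1, SNF replicate 2, WCH replicate 1 or WCH replicate 2 (log2 fold change 0.68 to 0.85, highest adjusted p = 0.0981), with a reversed sign (−1.57) under total-count scaling. Eef1d and Eef1g passed in no comparison, and 64.3% of the 50-base stretches of Eef1g occur in other genes. Eef2k, the kinase that slows eEF2, passed in none of the comparisons and had 7.86, 10.02 and 7.22 CPM in SynapTRAP, 8.34, 10.1 and 9.24 CPM in SNF, 2.72, 5.44 and 8.56 CPM in TRAP and 9.65, 10.1 and 8.07 CPM in WCH. Eef1e1, part of the multisynthetase complex, was lower in SNF than in WCH (−1.08 ± 0.37 (SE), adjusted p = 0.0253). Eef1e1 lost this call without SNF replicate 2, SNF replicate 3, WCH replicate 1 or WCH replicate 3 (log2 fold change −1.28 to −0.90, highest adjusted p = 0.119). In SynapTRAP against TRAP it was lower too (−1.02 ± 0.34 (SE), adjusted p = 0.0219). Eef1e1 lost this call without SynapTRAP replicate 1 or TRAP replicate 1 (log2 fold change −1.35 to −0.64, highest adjusted p = 0.165). The eEF1A methyltransferase gene Eef1akmt1 had 5.53, 5.69 and 5.9 CPM in SynapTRAP, 4.89, 5.05 and 7.78 CPM in SNF, 13.5, 20.1 and 12.7 CPM in TRAP and 8.88, 8.18 and 9.17 CPM in WCH, and TRAP lay above every other library. It was lower in SynapTRAP than in TRAP (−1.43 ± 0.28 (SE), adjusted p = 0.000358), a call that held with each library left out (log2 fold change −1.60 to −1.25). In TRAP against WCH it was higher (0.82). Eef1akmt1 lost this call without TRAP replicate 2, WCH replicate 1, WCH replicate 2 or WCH replicate 3 (log2 fold change 0.62 to 0.97, highest adjusted p = 0.133). A second such gene, Eef1akmt2, was lower in SynapTRAP than in TRAP (−1.34 ± 0.50 (SE), adjusted p = 0.0387), a call that was lost without SynapTRAP replicate 1, SynapTRAP replicate 2, TRAP replicate 1 or TRAP replicate 2 (log2 fold change −2.24 to −0.93, highest adjusted p = 0.178), and TRAP replicate 3 fell within the SynapTRAP range.

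**Figure D3:**
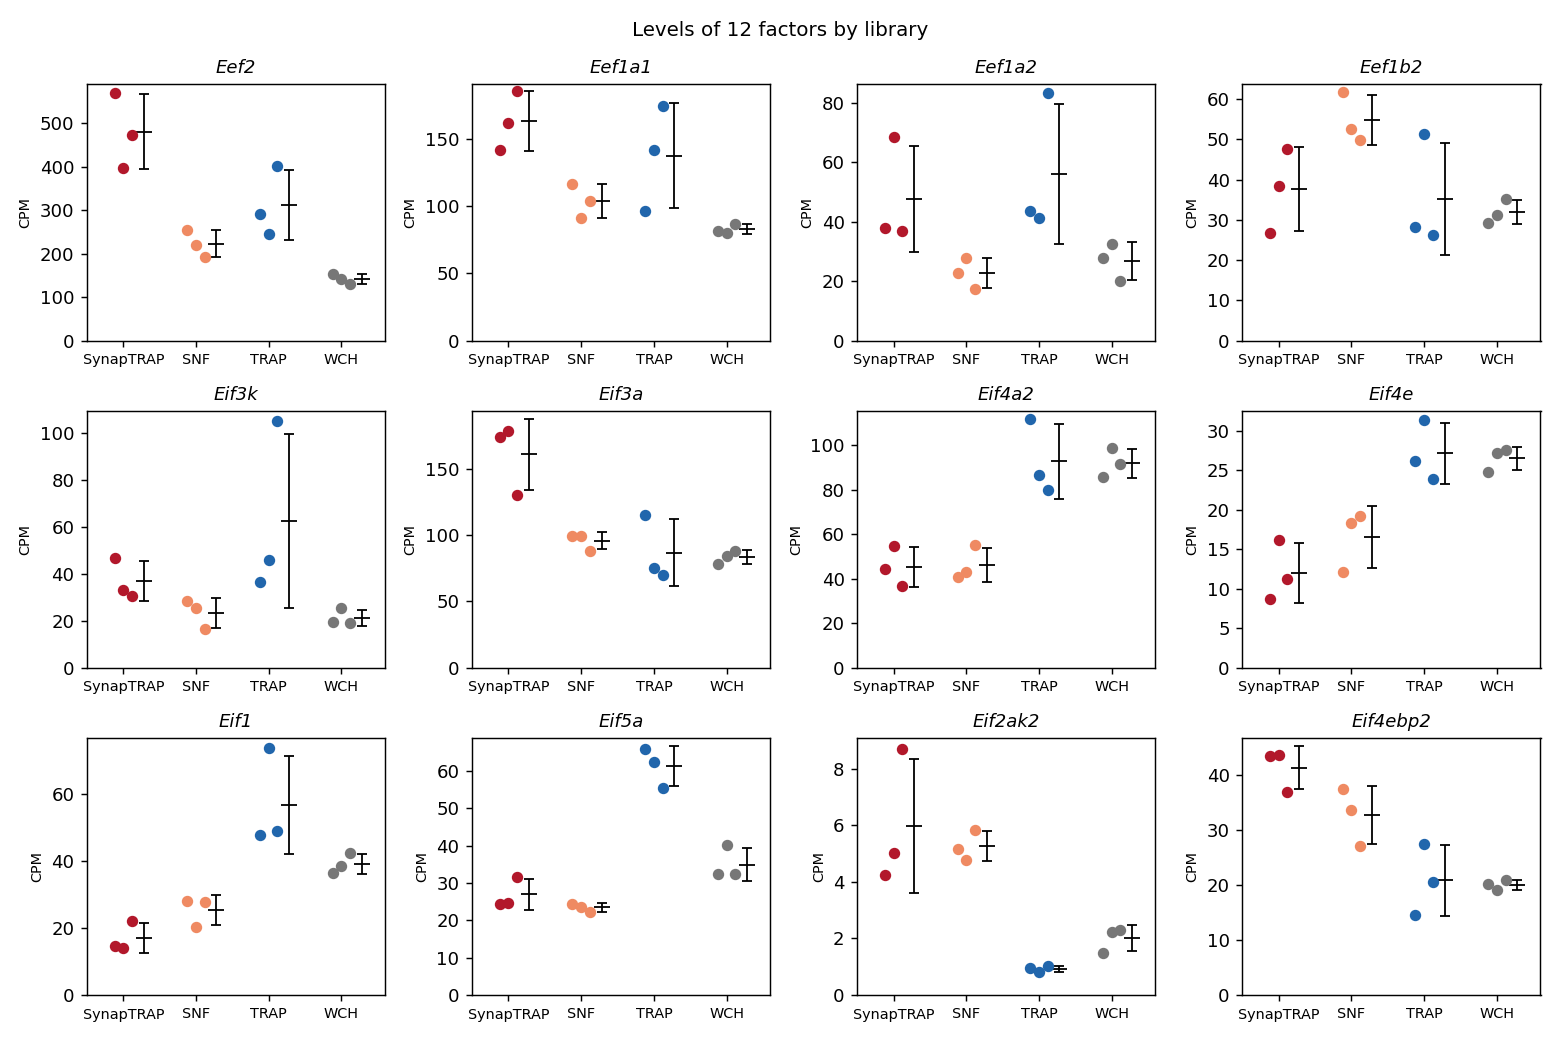
CPM of 12 genes in each library (points) with group mean and SD (n = 3), SynapTRAP, SNF, TRAP and WCH from left to right. Eef2 in SynapTRAP runs from 397 to 569 CPM, above the 193 to 255 of SNF, while Eif4a2 and Eif4e are lower in the synaptic groups.

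Subunits of eIF3, the scaffold that holds the small subunit, were higher in TRAP than in WCH for 7 of 14 genes, and 0 were lower, a direction that held under every scaling tried. Of all tested genes, 11.1% were higher and 10.9% lower in this comparison. Eif3k had 46.6, 33.1 and 30.7 CPM in SynapTRAP, 28.2, 25.5 and 16.3 CPM in SNF, 36.6, 45.7 and 105 CPM in TRAP and 19.3, 25.2 and 19 CPM in WCH. TRAP lay above WCH in every library, with TRAP replicate 3 well above the others. Eif3k was higher in TRAP (log2 fold change 1.56 ± 0.32 (SE), adjusted p = 0.0022), a call that held with each library left out (log2 fold change 0.99 to 1.85), the lowest of these values being that without TRAP replicate 3. Eif3d (1.41 ± 0.32 (SE), adjusted p = 0.00384), Eif3f (0.95), Eif3i (0.89) and Eif3l (0.85) were higher too, and these 4 calls held with each library left out. Eif3c was higher (0.83, adjusted p = 0.03). Eif3c lost this call without TRAP replicate 1, TRAP replicate 3, WCH replicate 1, WCH replicate 2 or WCH replicate 3 (log2 fold change 0.68 to 1.08, highest adjusted p = 0.127). Eif3d itself had 22.9, 24.6 and 8.55 CPM in SynapTRAP, 8.92, 10.6 and 6.08 CPM in SNF, 25, 26.4 and 42.8 CPM in TRAP and 13, 9.8 and 12.7 CPM in WCH, with TRAP above WCH in every library. Eif3b was higher as well (0.71, adjusted p = 0.044). Eif3b lost this call without any 1 of the 6 libraries (log2 fold change 0.67 to 0.82, highest adjusted p = 0.152). Eif3g was not called in the main fit and passed with the replicate number as a block (0.70, adjusted p = 0.0434). In the same comparison 5 of 10 neuron markers were higher and 0 lower, and 5 astrocyte, 6 oligodendrocyte and 4 microglia markers of 10 each were lower, whose part was not tested. In SNF against WCH none of the 14 passed in edgeR, with 0 at an unadjusted p under 0.05 and log2 fold changes of −0.50 to 0.32. In SynapTRAP against SNF, 13 of 14 were positive with a median of 0.53, and 0 were called (6 at an unadjusted p under 0.05). The median of all tested genes was 0.03 there, and 2.29% were called higher. Shares of all tested genes that were positive or at that unadjusted p are not given, so no conclusion is drawn from these counts.

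Eif3a, the largest subunit, was higher in SynapTRAP than in TRAP. It had 174, 178 and 130.2 CPM in SynapTRAP, 99.6, 98.9 and 88.1 CPM in SNF, 115, 74.8 and 69.5 CPM in TRAP and 77.7, 83.9 and 88.1 CPM in WCH, so all SynapTRAP libraries were above all others. It was higher in SynapTRAP than in TRAP (log2 fold change 0.89 ± 0.22 (SE), adjusted p = 0.00342), a call that held with each library left out (log2 fold change 0.71 to 1.12), though total-count scaling gave −0.02. Against SNF the fold change was 0.75 ± 0.23 (SE), adjusted p = 0.0606, and with the replicate number as a block it was 0.74, adjusted p = 0.0401. Without SynapTRAP replicate 3, Eif3a, Eif3c, Eif3d and Eif3l passed there (0.89, 0.95, 1.48 and 0.84). Eif3g (−0.90) was lower in SynapTRAP than in TRAP, and so was Eif3i (−0.61). Eif3i lost this call without SynapTRAP replicate 2 or TRAP replicate 3 (log2 fold change −0.75 to −0.43, highest adjusted p = 0.132).

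Starts of 2 eIF3 genes that were higher in TRAP, and of 2 initiation factor genes lower in SNF than in WCH, are shown for comparison, with capitals as above.
Eif3k (chr7:28981859-28981928, minus strand): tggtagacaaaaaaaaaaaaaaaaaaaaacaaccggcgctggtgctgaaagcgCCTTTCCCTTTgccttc
Eif3f (chr7:108934375-108934444, plus strand): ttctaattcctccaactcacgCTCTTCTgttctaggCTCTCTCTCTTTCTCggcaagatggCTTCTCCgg
Eif1ax (chrX:159372138-159372207, plus strand): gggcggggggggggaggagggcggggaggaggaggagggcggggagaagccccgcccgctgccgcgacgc
Eif4a2 (chr16:23107428-23107497, plus strand): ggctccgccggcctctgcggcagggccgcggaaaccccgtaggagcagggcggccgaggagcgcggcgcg
The runs in capitals stand in Eif3k and Eif3f and are absent from these windows of Eif1ax and Eif4a2. The 4 genes were picked for their fold changes, so this is no test.

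Of the 5 factors that select the start codon, 4 were lower in SNF than in WCH (2 with DESeq2) and 3 lower in SynapTRAP than in TRAP, with 0 higher under every scaling tried. The shares of all tested genes called lower were 16.5% and 18.1% in these comparisons. Eif1, which guards start codon choice, had 14.6, 14 and 22.1 CPM in SynapTRAP, 27.9, 20.2 and 27.7 CPM in SNF, 47.8, 73.6 and 48.7 CPM in TRAP and 36.4, 38.5 and 42.3 CPM in WCH. Every SynapTRAP library was below every TRAP library, and every SNF library below every WCH library. Eif1 was lower in SynapTRAP than in TRAP (log2 fold change −1.76 ± 0.25 (SE), adjusted p = 1.38e-05), a call that held with each library left out (log2 fold change −1.99 to −1.57), and of its 50-base stretches 31.6% occur in other genes. In SNF against WCH it was lower too (−0.63 ± 0.25 (SE), adjusted p = 0.0496). Eif1 lost this call without any 1 of the 6 libraries (log2 fold change −0.71 to −0.49, highest adjusted p = 0.196). The authors' deposited table of 275 somatic translation candidates lists Eif1, with 0.59 by the TRAP comparison and −0.59 by the column comparison. Eif1ax had 55.7, 51.8 and 66.5 CPM in SynapTRAP, 65.3, 55.8 and 70.5 CPM in SNF, 65.4, 54.7 and 45.4 CPM in TRAP and 102, 97 and 132 CPM in WCH, with WCH above the other 3 groups. It was lower in TRAP than in WCH (−0.999 ± 0.22 (SE), adjusted p = 0.00289), a call that held with each library left out (log2 fold change −1.11 to −0.84), and no longer called by total counts. Eif1b (−1.19) and Eif1a (−0.90) were lower in SynapTRAP than in TRAP, calls that held with each library left out. In SNF against WCH, Eif1a (−1.005 ± 0.26 (SE), adjusted p = 0.00482) held likewise. Eif1ax was lower there too (−0.79). Eif1ax lost this call without WCH replicate 3 (log2 fold change −0.88 to −0.64, highest adjusted p = 0.0556). The remaining start-codon call in SNF against WCH was Eif1b (−0.67). Eif1b lost this call without SNF replicate 1, SNF replicate 2, WCH replicate 1, WCH replicate 2 or WCH replicate 3 (log2 fold change −0.81 to −0.53, highest adjusted p = 0.173). Eif5, the GTPase-activating factor of eIF2, passed in no comparison and had 49, 72.8 and 85.7 CPM in SynapTRAP, 65.3, 64.9 and 85.4 CPM in SNF, 66.3, 73.1 and 66.3 CPM in TRAP and 75.6, 81.2 and 83.3 CPM in WCH.

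The eIF2B subunits, which recharge eIF2, were lower in SynapTRAP than in TRAP for 4 of 5 genes, with 0 higher under every scaling tried. Of all tested genes, 18.1% were lower in this comparison. Eif2b1 had 6.02, 6.53 and 5.01 CPM in SynapTRAP, 8.92, 6.38 and 7.05 CPM in SNF, 15.2, 18.4 and 17.3 CPM in TRAP and 11.9, 11.4 and 9.99 CPM in WCH, and no SynapTRAP library reached a TRAP library. It was lower in SynapTRAP (log2 fold change −1.52 ± 0.25 (SE), adjusted p = 8.84e-05), a call that held with each library left out (log2 fold change −1.63 to −1.43). Eif2b4 had 5.05, 7.89 and 5.6 CPM in SynapTRAP, 2.88, 4.79 and 4.14 CPM in SNF, 11.2, 16.2 and 18 CPM in TRAP and 6.72, 5.54 and 7.33 CPM in WCH, so TRAP lay above WCH and SynapTRAP below TRAP in every library. Eif2b4 (−1.28), Eif2b2 (−1.27) and Eif2b3 (−1.12) were lower as well, and each call held with each library left out. Eif2b4 (1.21 ± 0.29 (SE), adjusted p = 0.005) and Eif2b2 (1.07 ± 0.28 (SE), adjusted p = 0.00919) were higher in TRAP than in WCH, and Eif2b2 lost that call without WCH replicate 2 or 3 (highest adjusted p = 0.0573). The authors' deposited table of somatic translation candidates holds Eif2b2, with 1.11 by the TRAP comparison and −0.81 by the column comparison. Eif2b2 was lower in SNF than in WCH (−1.19), a call lost without WCH replicate 1 (adjusted p = 0.0655). Of the eIF2 subunits, Eif2s1 was lower in SNF (−0.77, adjusted p = 0.0451), a call lost without any 1 of the 6 libraries (log2 fold change −0.90 to −0.69). Eif2s3y was not called in TRAP or SNF against WCH in the main fit. With the replicate number as a block it was lower in both (log2 fold changes −1.37, adjusted p = 0.0101, and −1.41, adjusted p = 0.00816).

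Of the 4 kinases of eIF2α, which halt most initiation under stress, 2 were higher in SNF than in WCH and 2 higher in SynapTRAP than in TRAP, and 1 was lower in SNF. The shares of all tested genes were 20.6% higher and 16.5% lower in SNF against WCH. In SynapTRAP against TRAP 21.6% of all tested genes were higher. By total counts 0 of the 4 kinases were higher and 3 lower in SNF against WCH, and 1 was higher and 1 lower in SynapTRAP against TRAP. Over all genes that scaling called 11452 either way in SNF against WCH and 6997 in SynapTRAP against TRAP. Eif2ak2 (PKR, activated by double-stranded RNA) had 4.25, 5.01 and 8.7 CPM in SynapTRAP, 5.18, 4.79 and 5.84 CPM in SNF, 0.952, 0.815 and 1.03 CPM in TRAP and 1.47, 2.23 and 2.29 CPM in WCH, and both synaptic groups lay above TRAP and WCH in every library. It was higher in SynapTRAP than in TRAP (log2 fold change 2.65 ± 0.41 (SE), adjusted p = 4.02e-05), a call that held with each library left out (log2 fold change 2.29 to 2.81), and in SNF than in WCH (1.40 ± 0.40 (SE), adjusted p = 0.0092), a call that held with each library left out (log2 fold change 1.31 to 1.497). Total-count scaling reversed the sign in SNF against WCH to −0.93. Raw counts of Eif2ak2 were only 9 to 14 in TRAP libraries, 18 to 24 in SNF, 19 to 33 in WCH and 53 to 66 in SynapTRAP. Eif2ak3 (PERK, of the endoplasmic reticulum) was higher in SynapTRAP than in TRAP (1.03 ± 0.29 (SE), adjusted p = 0.007), a call that held with each library left out (log2 fold change 0.90 to 1.18) but was lost by total counts (0.14, adjusted p = 0.795) and with only the libraries numbered 2 and 3 (0.83, adjusted p = 0.154). The kinase gene was higher in SNF than in WCH (0.83 ± 0.30 (SE), adjusted p = 0.0334). Eif2ak3 lost this call without SNF replicate 1, SNF replicate 2, WCH replicate 1 or WCH replicate 2 (log2 fold change 0.63 to 1.06, highest adjusted p = 0.167). The SNF and WCH libraries overlapped, and the sign was reversed (−1.501) by total counts. Eif2ak4 (GCN2, which senses uncharged tRNA) was lower in SNF than in WCH (−1.06 ± 0.36 (SE), adjusted p = 0.0233). Eif2ak4 lost this call without SNF replicate 1, SNF replicate 2, WCH replicate 1 or WCH replicate 2 (log2 fold change −1.68 to −0.78, highest adjusted p = 0.133). Markers of glia moved with Eif2ak2 and Eif2ak3. All 10 astrocyte and all 10 microglia markers were higher in SNF than in WCH and in SynapTRAP than in TRAP, as were 7 and 8 of 10 oligodendrocyte markers. Neuron markers went both ways: of 10, 3 were higher and 2 lower in SNF than in WCH. In SynapTRAP against TRAP, 2 neuron markers were higher and 3 lower. Microglia markers summed to 158 to 337 CPM in SynapTRAP, 256 to 536 in SNF, 18.4 to 47.7 in TRAP and 71.2 to 83.6 in WCH. Their part in these results was not tested.

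Of 3 tested cap-binding genes 2, and of 3 eIF4A helicase genes 2, were lower in SNF than in WCH (1 and 1 with DESeq2). In SynapTRAP against TRAP 2 and 2 were lower, and 0 were higher in either comparison under every scaling tried. The shares of all tested genes called lower were 16.5% in SNF against WCH and 18.1% in SynapTRAP against TRAP. Eif4a2 overlaps Rfc4 on the other strand, as Eef1b2 overlaps Ndufs1 and Eif2b4 overlaps Snx17, so their counts are uncertain where strand was not used. Eif4a2, the neuronal helicase form, had 44.2, 54.9 and 36.9 CPM in SynapTRAP, 40.9, 43.1 and 55 CPM in SNF, 112, 86.5 and 79.9 CPM in TRAP and 85.6, 98.5 and 91.6 CPM in WCH, and the synaptic groups did not overlap the other 2. It was lower in SynapTRAP than in TRAP (log2 fold change −1.03 ± 0.22 (SE), adjusted p = 0.000892), a call that held with each library left out (log2 fold change −1.19 to −0.91), and lower in SNF than in WCH (−0.99 ± 0.22 (SE), adjusted p = 0.00154), a call that held with each library left out (log2 fold change −1.13 to −0.91). Of the other helicase genes, Eif4a1 was lower in SNF than in WCH (−0.70). Eif4a1 lost this call without any 1 of the 6 libraries (log2 fold change −0.76 to −0.60, highest adjusted p = 0.138). Eif4a3, which mainly marks exon junctions, was higher in TRAP than in WCH (0.98 ± 0.25 (SE), adjusted p = 0.00765), a call that held with each library left out (log2 fold change 0.92 to 1.15). In SynapTRAP against TRAP it was lower (−0.75 ± 0.25 (SE), adjusted p = 0.0191). Eif4a3 lost this call without SynapTRAP replicate 1 (log2 fold change −0.94 to −0.70, highest adjusted p = 0.0596). Eif4e, the cap-binding protein, had 8.66, 16.2 and 11.2 CPM in SynapTRAP, 12.1, 18.3 and 19.2 CPM in SNF, 26.2, 31.3 and 23.8 CPM in TRAP and 24.8, 27.2 and 27.5 CPM in WCH. It was lower in SynapTRAP than in TRAP (−1.17 ± 0.25 (SE), adjusted p = 0.00106), a call that held with each library left out (log2 fold change −1.46 to −1.0). Against WCH, SNF was lower for Eif4e as well (−0.67). Eif4e lost this call without SNF replicate 1, SNF replicate 2, WCH replicate 1, WCH replicate 2 or WCH replicate 3 (log2 fold change −0.80 to −0.50, highest adjusted p = 0.207). Eif4enif1, a transporter and repressor of eIF4E, was lower in SNF than in WCH (−0.96) and in SynapTRAP than in TRAP (−0.68), calls that held with each library left out. Eif4e2, a repressive relative, was lower in SNF than in WCH (−0.99), which held likewise, and in SynapTRAP than in TRAP (−0.71). Eif4e2 lost this call without SynapTRAP replicate 2, SynapTRAP replicate 3 or TRAP replicate 3 (log2 fold change −0.93 to −0.58, highest adjusted p = 0.0866). Of the eIF4G scaffold genes, Eif4g2 and Eif4g3 passed in no comparison. Eif4g2, which acts without the cap-binding protein, had 326, 316 and 515 CPM in SynapTRAP, 394, 319 and 462 CPM in SNF, 403, 425 and 225 CPM in TRAP and 436, 479 and 534 CPM in WCH, and TRAP lay below WCH in every library. In TRAP against WCH its fold change was −0.46 ± 0.27 (SE), adjusted p = 0.222. Eif4g1 was higher in TRAP than in WCH (0.86 ± 0.23 (SE), adjusted p = 0.0111). Eif4g1 lost this call without WCH replicate 3 (log2 fold change 0.77 to 1.02, highest adjusted p = 0.0691). Eif4h, a helicase cofactor, was higher in TRAP than in WCH (0.76). Eif4h lost this call without TRAP replicate 3, WCH replicate 2 or WCH replicate 3 (log2 fold change 0.55 to 0.93, highest adjusted p = 0.09). In SynapTRAP it was lower than in TRAP (−0.64). Eif4h lost this call without SynapTRAP replicate 1, SynapTRAP replicate 2 or TRAP replicate 3 (log2 fold change −0.82 to −0.44, highest adjusted p = 0.114).

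The eIF4E inhibitor Eif4ebp2, the main eIF4E-binding protein of brain, was higher in the synaptic groups. It had 43.5, 43.6 and 36.9 CPM in SynapTRAP, 37.4, 33.5 and 27 CPM in SNF, 14.5, 27.4 and 20.6 CPM in TRAP and 20.1, 19 and 20.9 CPM in WCH. SynapTRAP exceeded TRAP in every library, as SNF did WCH. It was higher in SynapTRAP than in TRAP (log2 fold change 0.99 ± 0.24 (SE), adjusted p = 0.00213), a call that held with each library left out (log2 fold change 0.75 to 1.19) but was lost by total counts (0.04, adjusted p = 0.934) and with only the libraries numbered 2 and 3 (0.73, adjusted p = 0.101). It was higher in SNF than in WCH (0.71 ± 0.24 (SE), adjusted p = 0.0253), a call that was lost without SNF replicate 1, SNF replicate 2, WCH replicate 2 or WCH replicate 3 (log2 fold change 0.59 to 0.82, highest adjusted p = 0.115), with a reversed sign by total counts (−1.66). Glial markers moved with it, and neuron markers went both ways, as given above.

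Eif5a, which helps ribosomes past difficult peptide bonds, had 24.4, 24.7 and 31.7 CPM in SynapTRAP, 24.5, 23.7 and 22.1 CPM in SNF, 66, 62.3 and 55.4 CPM in TRAP and 32.3, 40.1 and 32.4 CPM in WCH, with TRAP above all other libraries. It was higher in TRAP than in WCH (log2 fold change 0.81 ± 0.21 (SE), adjusted p = 0.00766), a call that held with each library left out (log2 fold change 0.76 to 0.92), and lower in SynapTRAP than in TRAP (−1.19 ± 0.21 (SE), adjusted p = 0.00014), a call that held with each library left out (log2 fold change −1.32 to −1.13). Its paralog Eif5a2 was lower in TRAP than in WCH (−0.86 ± 0.24 (SE), adjusted p = 0.0135). Eif5a2 lost this call without TRAP replicate 3 or WCH replicate 2 (log2 fold change −1.01 to −0.71, highest adjusted p = 0.0703). Eif5a2 was lower in SNF than in WCH (−0.74). Eif5a2 lost this call without SNF replicate 2, SNF replicate 3, WCH replicate 1, WCH replicate 2 or WCH replicate 3 (log2 fold change −0.83 to −0.65, highest adjusted p = 0.0947). So was Eif5a (−0.58). Eif5a lost this call without any 1 of the 6 libraries (log2 fold change −0.63 to −0.47, highest adjusted p = 0.168). The Eif5a2 to Eif5a count ratio was 0.258, 0.372 and 0.281 in TRAP, against 1.02, 0.867 and 1.03 in WCH, with no overlap. The log2 difference was −1.69, and the exact two-sided permutation test over 3 and 3 libraries gave p = 0.1, the smallest that design allows (adjusted p = 0.32 over 16 ratio tests). In SynapTRAP against TRAP the difference was 1.38 (exact permutation p = 0.1). The replicate numbers pair SynapTRAP with TRAP and with SNF, but the permutations took all libraries as unpaired. For this and the SynapTRAP ratios below, the permutation test therefore does not match the pairing, and no conclusion is drawn from it. The adjusted value above was computed with these unpaired tests included. The Eif4a2 to Eif4a1 ratio was 3.32, 4.63 and 3.21 in SynapTRAP, against 5.04, 5.52 and 6.48 in TRAP, with a log2 difference of −0.62 (exact permutation p = 0.1). In SynapTRAP the Eif4g3 to Eif4g1 ratio was 2.05, 2.08 and 2.03, against 2.48, 2.34 and 3.55 in SNF, with a log2 difference of −0.42 (exact permutation p = 0.1), which was −0.23 without SNF replicate 3. Of Eif4a1's 50-base stretches, 65.3% occur in other genes, among them 8 pseudogenes, and of Eif4a2's 26.2%. Eif6, which keeps ribosomal subunits apart, was higher in TRAP than in WCH (1.01 ± 0.25 (SE), adjusted p = 0.0067), a call that held with each library left out (log2 fold change 0.91 to 1.13), and lower in SynapTRAP than in TRAP (−0.99 ± 0.25 (SE), adjusted p = 0.00359), a call that held with each library left out (log2 fold change −1.18 to −0.83).

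**Figure D4:**
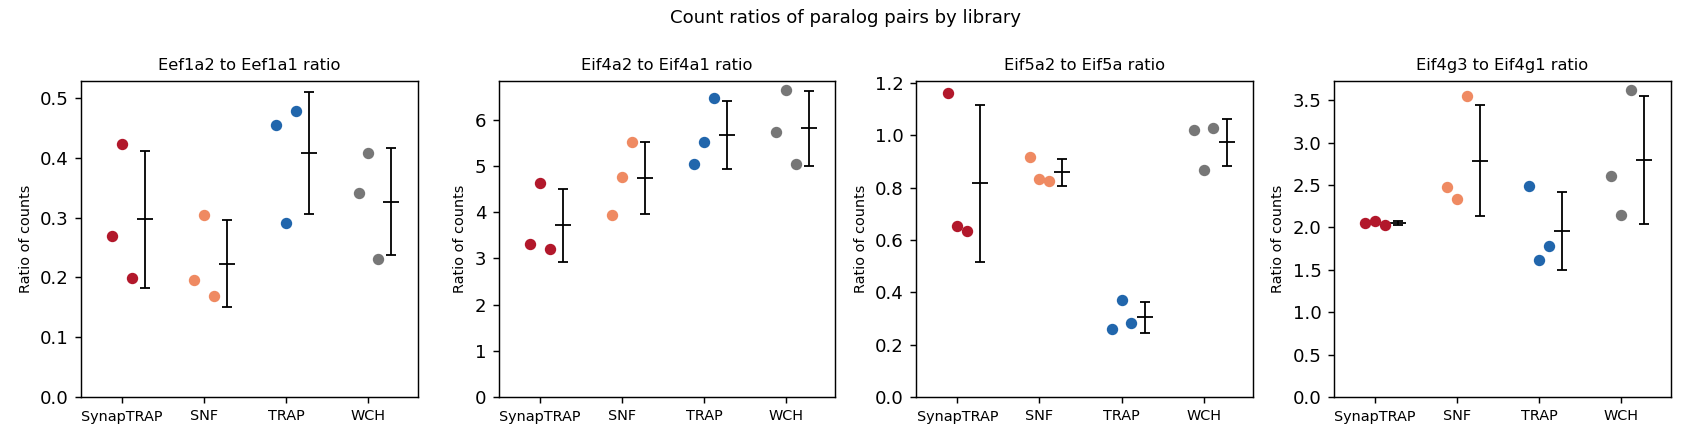
Count ratios of 4 paralog pairs in each library (points) with group mean and SD (n = 3). The Eif5a2 to Eif5a ratio in TRAP (0.258 to 0.372) lies below that of the other 3 groups.

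Among the other genes called lower in SynapTRAP than in TRAP, Eif1ad, an Eif1a-like domain protein (−1.12), held with each library left out. The last was Eif2d, which can place tRNA without eIF2 (−0.83). Eif2d lost this call without SynapTRAP replicate 2, TRAP replicate 1 or TRAP replicate 3 (log2 fold change −1.03 to −0.57, highest adjusted p = 0.153). Of the 65 tested genes 23 passed in none of the comparisons, among them Eif2s2 and Eif2s3x of eIF2, the helicase cofactor Eif4b, Eif5b, which joins the subunits, and the eIF4E inhibitor Eif4ebp1. Eif4b had 55, 71.5 and 73.6 CPM in SynapTRAP, 57, 48.7 and 50.1 CPM in SNF, 60.8, 66.5 and 79.9 CPM in TRAP and 63.5, 62 and 55.3 CPM in WCH. Eif4ebp1 lay between 0.367 and 2.43 CPM in all libraries.

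Per kilobase of exon, Eef2 had the highest mean level of the 68 genes in SynapTRAP (144 CPM per kb), SNF and TRAP, and was the third in WCH. Eef1a1 was the next in SynapTRAP, with 65.3 CPM per kb, then Eif4g2 with 37.9 and Eif3c with 29.4. In WCH the order was Eif1b with 50.4 CPM per kb, Eif4g2 with 47.5, Eef2 with 42.3 and Eef1a1 with 33.2. Eif1 was at rank 22 in SynapTRAP and rank 7 in WCH. Neighbours in these orders were not tested against each other. Across the 65 genes, longer transcripts tended to have lower fold changes in TRAP against WCH (Spearman rho = −0.39, against −0.25 over 12922 protein-coding genes) and higher ones in SynapTRAP against TRAP (0.39, against 0.23), values across genes, which are not independent replicates and share the same libraries.

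Other genes of the pathway were taken from 4 lists chosen with earlier results of these data known, and their counts stand beside the shares of all tested genes, which were 11.1% higher and 10.9% lower in TRAP against WCH, 20.6% and 16.5% in SNF against WCH and 21.6% and 18.1% in SynapTRAP against TRAP. Of 8 termination and recycling genes, 0 were called in TRAP against WCH, and 0 were higher and 4 lower in SNF against WCH and likewise in SynapTRAP against TRAP. Denr and Gspt2 were lower in SynapTRAP than in TRAP (−1.31 and −1.33), calls that held with each library left out. In SNF against WCH, Hbs1l (−1.02) and Denr (−0.99) each lost the call without 1 library, SNF replicate 2 (adjusted p = 0.0544) and SNF replicate 3 (adjusted p = 0.0558). Gspt2 (−0.98) lost it without SNF replicate 1 or 3 or WCH replicate 1 or 3 (adjusted p up to 0.167).

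A mixed list held 12 genes: poly(A)-binding proteins, helicases, partners of either and other translation regulators. Of these, 1 was higher and 1 lower in TRAP against WCH, and 1 and 3 in SNF against WCH. In SynapTRAP against TRAP 2 were higher and 2 lower. Cyfip1 (1.27) was higher and Abcf1 (−1.07) and Paip2 (−0.83) lower in SynapTRAP than in TRAP, with each library left out too. Of 13 tested genes of mTOR and stress signalling to translation, 2 were higher and 1 lower in TRAP against WCH, 2 and 4 in SNF against WCH, 1 and 0 in SynapTRAP against SNF and 2 and 3 in SynapTRAP against TRAP. Tsc2, an inhibitor of mTORC1, was higher in TRAP than in WCH (1.07 ± 0.22 (SE), adjusted p = 0.00211), which held with each library left out. So was Rptor, a part of mTORC1 (0.72), which lost the call without TRAP replicate 1 or WCH replicate 2 or 3 (adjusted p up to 0.127). Rps6kb1, a kinase that mTORC1 activates, was lower (−1.06), a call lost without TRAP replicate 3 (adjusted p = 0.0609). Tsc2 was higher in SynapTRAP than in SNF too (1.04 ± 0.23 (SE), adjusted p = 0.0153), a call lost without SNF replicate 2 or 3 or SynapTRAP replicate 1 (adjusted p up to 0.106). Atf4, the transcription factor made when eIF2α is phosphorylated (−1.60 ± 0.25 (SE), adjusted p = 5.63e-05), and Rheb, an activator of mTORC1 (−1.07), were lower in SynapTRAP than in TRAP. Ppp1r15b, which directs removal of that phosphate (1.03), was higher, and these 3 calls held with each library left out. Mknk2, a kinase of eIF4E (0.93), was higher and lost the call without SynapTRAP replicate 1 or TRAP replicate 1 (adjusted p up to 0.137). Of 11 mitochondrial translation factors, 2 were higher and 1 lower in TRAP against WCH, 0 and 2 in SNF against WCH and 0 and 3 in SynapTRAP against TRAP. Tufm, the mitochondrial counterpart of eEF1A, was higher (2.14 ± 0.52 (SE), adjusted p = 0.00601) and Guf1, a mitochondrial elongation factor, lower (−1.65 ± 0.33 (SE), adjusted p = 0.00157) in TRAP than in WCH. Mtfmt, which formylates initiator tRNA, was lower in SynapTRAP than in TRAP (−1.83), and these 3 calls held with each library left out. In the authors' deposited table of 3508 genes enriched in SNF by the column comparison, 6 of the 68 genes were listed, Eif2ak2, Eif2ak3, Eef1b2, Eif4ebp2, Eef2 and Eef1g.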

How the data were processed

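RNA from 12 libraries in 4 groups of 3 was analysed. The authors deposited whole-number read counts per gene (29879 genes), made with Bowtie2, STAR and HTSeq, per the submitters' processing notes. Their versions, the strand setting and the genome build were not given in these sources, so overlapping and antisense genes could not be told apart. Rows for no gene held 19.3% to 58.3% of a library's reads and were left out. Per the file headers, 3 tables that the authors deposited give log2 fold changes, p-values, false discovery rates and likelihood-ratio scores of genes they selected.

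Symbols and lengths came from GENCODE M21. One fit of all 12 libraries was made in edgeR 4.0.16 (group means, TMM scaling, default filter, robust quasi-likelihood test, Benjamini-Hochberg adjustment over 13404 genes), with DESeq2 1.42.0 as an alternative, and the fits were tested on simulated data. The members and lists were chosen with earlier results of these data known. Genes named with values in every library follow a written rule: the members the text turns on and up to 5 called members with the largest change in each direction. Libraries of the same number correlated in their deviations from the group means in SynapTRAP and SNF (0.218, 0.293 and 0.379) and in SynapTRAP and TRAP (0.104, 0.144 and 0.106), so the numbers pair these groups. The values with the number as a block stand beside the results they change. The main fit held no such block, and the permutation tests of count ratios took the libraries as unpaired.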

Additional observations from a re-analysis of the deposited data

How the results depend on the processing

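Removing mitochondrial genes before TMM, or leaving out the filter on low counts, changed no count of calls by over 1.5 times. Only the libraries numbered 2 and 3, a choice made after seeing the data that leaves 2 libraries a group, gave 8 higher in TRAP against WCH, 0 higher and 1 lower in SNF against WCH, 0 higher in SynapTRAP against SNF, and 2 higher and 12 lower in SynapTRAP against TRAP. Calls over all genes fell at this setting too, as given above. Total-count scaling gave 0 lower in TRAP against WCH, 0 higher and 62 lower in SNF against WCH, 61 higher in SynapTRAP against SNF, 1 higher and 48 lower in SynapTRAP against TRAP, and 35 higher for the difference between both pull-down effects, with the shifts of the median given above (1.46 for the difference). Over all genes this scaling called 3093, 11452, 12177, 6997 and 6329 either way in that order, where the main fit called 2947, 4966, 547, 5331 and 116. The shift thus took in most genes in SNF against WCH and in SynapTRAP against SNF, and was not particular to these factors. DESeq2 gave 8 lower in SNF against WCH and 1 lower for that difference, and its size factors in edgeR (RLE) gave 7 lower in SNF against WCH and 1 higher in SynapTRAP against SNF. Fits of only the groups compared gave 8 higher in SNF against WCH, 0 higher in SynapTRAP against SNF and 14 lower in SynapTRAP against TRAP. Except where fewer libraries entered, the cause was not tested.
Total-count scaling reversed 18 log2 values in SNF against WCH: Eef1a1 −2.04, Eef1b2 −1.57, Eef1d −2.04, Eef1g −1.84, Eef2 −1.72, Eef2kmt −1.58, Eif2ak1 −2.20, Eif2ak2 −0.93, Eif2ak3 −1.501, Eif3a −2.15, Eif3c −2.19, Eif3f −2.05, Eif3h −2.33, Eif3j2 −2.35, Eif3k −2.24, Eif4ebp2 −1.66, Eif4g1 −2.30 and Eif4g3 −2.28. Total-count scaling reversed 20 log2 values in SynapTRAP against SNF: Eef1akmt1 1.89, Eef1b2 1.38, Eef1d 1.90, Eef1e1 1.73, Eef1g 1.94, Eef2k 1.87, Eef2kmt 1.61, Eif1 1.31, Eif1a 1.52, Eif1ad 1.74, Eif1ax 1.79, Eif1b 1.48, Eif2ak1 1.99, Eif2b1 1.68, Eif2b3 1.76, Eif4a2 1.99, Eif4e 1.53, Eif4e3 1.5, Eif4g2 1.86 and Eif5 1.86. Total-count scaling reversed 8 log2 values in SynapTRAP against TRAP: Eef1b2 −0.97, Eef2 −0.32, Eif1ax −0.95, Eif3a −0.0245, Eif3f −0.99, Eif4g2 −0.97, Eif5 −1.004 and Eif5b −0.97. Total-count scaling reversed 8 log2 values in the difference between both pull-down effects: Eef1a1 1.32, Eef2 1.40, Eif3c 1.44, Eif3h 1.23, Eif3l 1.28, Eif4a2 1.39, Eif4g3 1.25 and Eif4h 1.20.

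With each library left out in turn, calls were 10 to 19 higher and 1 to 2 lower in TRAP against WCH, 1 to 5 higher and 5 to 9 lower in SNF against WCH, 0 to 6 higher and 0 lower in SynapTRAP against SNF, 4 to 6 higher and 18 to 22 lower in SynapTRAP against TRAP, and 0 higher and 0 to 1 lower for the difference. The log2 ratio differences reversed sign in 4 cases: Eif4a2 to Eif4a1 in TRAP against WCH (−0.13 to 0.0692, with 0.05 without TRAP replicate 1 and 0.0692 without WCH replicate 2), Eif5a2 to Eif5a in SynapTRAP against SNF (−0.41 to 0.0239, with 0.000515 without SynapTRAP replicate 2 and 0.0239 without replicate 3), Eif4g3 to Eif4g1 in SNF against WCH (−0.18 to 0.21, with −0.18 without SNF replicate 3, and −0.03 and −0.16 without WCH replicate 1 and 2) and Eif4g3 to Eif4g1 in SynapTRAP against TRAP (−0.0369 to 0.27, with −0.0369 without TRAP replicate 2). The elongation to initiation ratio moved to 0.309 and 0.657 in SynapTRAP, 0.209 and 0.469 in SNF, 0.203 and 0.408 in TRAP and 0.126 and 0.292 in WCH without Eef1a1 and per kilobase. Without Eef2 it was 0.1501 in SynapTRAP, 0.139 in SNF, 0.129 in TRAP and 0.0982 in WCH.

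With the replicate number as a block, calls were 19 higher and 3 lower in TRAP against WCH, 5 and 16 in SNF against WCH, 3 and 0 in SynapTRAP against SNF, 5 and 22 in SynapTRAP against TRAP and 0 and 0 for the difference. The block changed the calls of Eif3a (SynapTRAP against SNF), Eif3g (TRAP against WCH, 0.70, adjusted p = 0.0434) and Eif2s3y (TRAP and SNF against WCH) and no other. Same-number correlations did not all pass 0.1 between TRAP or SNF and WCH, so these groups were not taken as paired: they were 0.0364, 0.0634 and −0.0149 for TRAP and 0.165, 0.0771 and 0.0651 for SNF. The sex-linked pattern nonetheless followed the number in all 4 groups. Levels near a few counts, such as those of Eif4ebp1, Eif3j2 and Eif2ak2, are imprecise at this depth.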
